A study of Mus musculus with 114 samples.

Results

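Chemokines and their receptors were examined in adipocytes from the perigonadal fat of mice fed a control or a high fat diet. The 61 members are drawn from the genes whose symbol begins with Ccl, Cxcl, Ccr, Cxcr, Ackr or Xcr followed by a digit, together with Cx3cl1, Cx3cr1 and Xcl1, out of 29132 genes with a value. They comprise 40 ligands and 21 receptors, and none was chosen for its measured level. The ligands are counted by symbol and include Ccl19-ps1 and Ccl19-ps3, which are named as pseudogenes. The mice were C57BL/6J males, kept on chow (CD) or on high fat feed (HFD) for 8, 20 or 34 weeks beginning when they were 6 weeks old. The paper names alternative control feeds and does not say which CD group had which. Each diet had 6 mice at 8 and 20 weeks, and at 34 weeks there were 8 CD and 6 HFD mice. No genetic change or drug was given to any group, and all mice were fasted before harvest. Adipocytes are the cells that floated after collagenase digestion of the fat pad, and their polyA RNA was sequenced. The 114 samples are 3 technical replicates of each of 38 mice, merged by the authors into 1 value per mouse, so each n counts mice.

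Chemokines are small secreted proteins that direct the migration of leukocytes along a gradient. They fall into CC and CXC classes by the spacing of their first cysteines, and signal through receptors with a heptahelical fold that couple to inhibitory G proteins. Atypical receptors (Ackr) bind chemokines without this coupling and remove or redistribute them. In obese adipose tissue the family is known for the recruitment of monocytes, which become the macrophages that surround dying adipocytes, and both adipocytes and the immune and stromal cells around them can make chemokines.

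Between 9275711 and 15480388 reads (median 12522298) fell on genes in each mouse. At 8 weeks CD mice had 10562845 to 12611013 reads and HFD mice 13201234 to 15480388, without overlap. CD mice of 20 weeks had 13091365 to 14292115 reads, also above every CD mouse of 8 weeks. The diets overlapped in depth at 20 and 34 weeks. Depth thus ran with diet at 8 weeks and with time in CD mice from 8 to 20 weeks, and its part was not tested. A single read was worth 0.0646 to 0.108 counts per 1000000 reads (CPM), and the limit that a count of 0 allows (3 reads) was 0.194 to 0.323 CPM. All 10 adipocyte markers were tested, and Adipoq, the adipokine adiponectin, averaged 3482 to 5861 CPM in the 6 groups. Markers of other cells were present too. The 13 macrophage markers found in the table summed to a median of 758 CPM in CD and 2225 CPM in HFD mice at 8 weeks, 1703 and 8459 CPM at 20 weeks, and 4453 and 13706 CPM at 34 weeks, and 9, 10 and 12 of the 13 were higher in HFD. The summed adipocyte markers had medians of 55431 and 39521 CPM at 8 weeks, 58625 and 27988 CPM at 20 weeks, and 45026 and 26080.0 CPM at 34 weeks. Macrophage RNA was therefore measured in the floating fraction, more of it in HFD and in older mice. Of 8 endothelial markers, 8, 7 and 7 were higher in HFD at 8, 20 and 34 weeks. Of 9 tested progenitor and fibroblast markers 7, 9 and 6 were higher, and of 5 tested mural markers 4, 3 and 3. Over all genes tested, 29.8%, 38.3% and 27.5% were higher. No level given here can be assigned to adipocytes alone. The neutrophil markers summed to 1.70 to 45.6 CPM in single mice, with 1 of the 6 genes at 0 in every mouse of each group, the T cell markers to 0.326 to 5.31 CPM and the NK cell markers to at most 0.760 CPM.

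At this depth 21 of the 61 members were expressed, by a mean log2(CPM + 1) above 2.0 over all mice, and these were tested. They are 17 of the 40 ligands (42.5%) and 4 of the 21 receptors (19.0%), against 35.5% of all genes. A further 15 members, 11 ligands and 4 receptors, were low, with a mean of at least 0.5 CPM in some group. The other 25 were at or under 0.170 CPM on average. The 21 expressed members are those that passed a filter and do not stand for the family as a whole.

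Per kilobase of exon, the levels were led by ligands. Cxcl1, a chemokine for neutrophils, averaged 412 CPM per kb over all mice, followed by Ccl2 (289.7 CPM per kb), the main attractant of monocytes, Cxcl2 (285 CPM per kb), Ccl7 (246 CPM per kb) and Ccl6 (209.8 CPM per kb). The first receptor was Cxcr4, the receptor of Cxcl12, at rank 12 with 31.7 CPM per kb. The other expressed receptors followed at 8.77 CPM per kb for Ackr3, 7.42 for Ccr1 and 1.97 for Ccr2, the last of the 21. The low ligands ranged from 4.51 CPM per kb (Ccl12) to 0.152 CPM per kb (Cxcl11), with Cxcl13, Ccl22, Cxcl5, Cxcl14, Ccl19, Ccl27a, Cx3cl1, Ccl25 and Ccl28 between them, and the low receptors were Ccr3, Cxcr3, Ccr7 and Cx3cr1 at 0.806 to 0.305 CPM per kb.

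**Figure D1:**
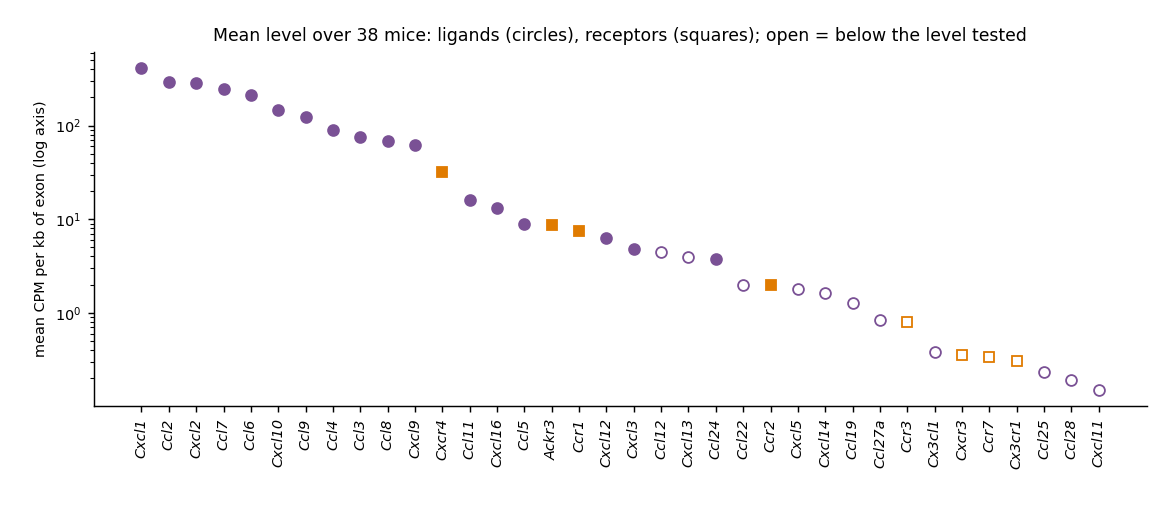
Mean CPM per kilobase of exon over the 38 mice on a log axis for the expressed and the low members, with ligands as circles, receptors as squares and open symbols for members below the level tested. Ligands hold the first 11 places, from Cxcl1 at 412 to Cxcl9 at 62.2 CPM per kb, and Cxcr4 is the highest receptor at 31.7 CPM per kb.

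The members not expressed at this depth were the ligands Ccl17, Ccl1, Ccl20, Ccl21a, Ccl21b, Ccl26, Ccl27b, Ccl19-ps1, Ccl19-ps3, Cxcl15, Cxcl17 and Xcl1 and the receptors Cxcr1, Cxcr2, Cxcr5, Cxcr6, Ccr1l1, Ccr4, Ccr6, Ccr8, Ccr9, Ccr10, Xcr1, Ackr2 and Ackr4. Of these, Ccl27b, Ccl21b, Ccl19-ps3 and Cxcl15 had no read in any mouse. The Ccl21, Ccl27 and Ccl19 loci hold near-identical copies between which reads could have been split, so their values are uncertain.

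Of the 61 members, 41 lie within 1000000 bp of another member in the RefSeq annotation of GRCm38.p6, and whole neighbourhoods differed in expression. On chromosome 11, all 5 genes of one cluster (Ccl5, Ccl9, Ccl6, Ccl3 and Ccl4) and 4 of 6 in another (Ccl2, Ccl7, Ccl11 and Ccl8, without Ccl12 and Ccl1) were expressed. On chromosome 5, Cxcl1, Cxcl2 and Cxcl3 lie in one cluster with Cxcl5 and Cxcl15, and Cxcl9 and Cxcl10 lie in another with Cxcl11. None of the 6 members of the chromosome 4 cluster was expressed, and of the 7 members in a chromosome 9 cluster of receptor genes Ccr1 and Ccr2 were.

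The 250 bases before the start are shown for 3 groups of neighbouring genes, since the results turn on whether neighbours moved together or apart with diet. RefSeq sequences of GRCm38.p6 were available for 14 of the 21 expressed members and 45 of the 61. Capitals mark the longest run of letters that the genes of a group share. Each such run was picked from these same promoters, so its presence in them was fixed in advance. Its share of all promoters is a description, and enrichment was not tested. For Cxcl1 (chr5:90890995-90891244, plus strand), Cxcl2 (chr5:90903649-90903898, plus strand) and Cxcl3 (chr5:90785851-90786100, plus strand) this run is GGGAATTTCCC, a form of the NF-kB site, which begins 71, 97 and 73 bases before the start and is found on either strand in 14 of 32851 promoters of this length (0.043%).
Cxcl1: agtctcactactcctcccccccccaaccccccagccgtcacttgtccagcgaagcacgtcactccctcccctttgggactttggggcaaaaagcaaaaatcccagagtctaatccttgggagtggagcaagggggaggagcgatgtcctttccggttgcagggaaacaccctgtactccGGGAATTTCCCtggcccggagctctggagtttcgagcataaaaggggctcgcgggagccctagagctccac
Cxcl2: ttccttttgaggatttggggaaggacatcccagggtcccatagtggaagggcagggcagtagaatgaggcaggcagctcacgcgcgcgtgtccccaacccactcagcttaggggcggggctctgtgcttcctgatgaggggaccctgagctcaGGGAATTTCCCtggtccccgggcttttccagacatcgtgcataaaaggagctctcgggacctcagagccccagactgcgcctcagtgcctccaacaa
Cxcl3: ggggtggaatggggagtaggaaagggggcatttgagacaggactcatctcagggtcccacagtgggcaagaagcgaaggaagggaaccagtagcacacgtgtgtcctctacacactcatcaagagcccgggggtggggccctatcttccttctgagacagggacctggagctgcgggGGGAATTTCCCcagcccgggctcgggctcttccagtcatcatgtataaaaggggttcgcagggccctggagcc

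For Cxcl9 (chr5:92328080-92328329, minus strand) and Cxcl10 (chr5:92348890-92349139, minus strand) the shared run is CAGCCAATCAG, which holds a CCAAT box and is found in 248 of 32851 promoters (0.755%). In Cxcl10 the letters GAAAGTGAAA are also in capitals. They match the core of the interferon-stimulated response element, GAAA and GAAA with 2 bases between them. On either strand 978 promoters hold this core (2.977%), among them those of the members Ccl19, Cxcl10 and Cxcl14.
Cxcl9: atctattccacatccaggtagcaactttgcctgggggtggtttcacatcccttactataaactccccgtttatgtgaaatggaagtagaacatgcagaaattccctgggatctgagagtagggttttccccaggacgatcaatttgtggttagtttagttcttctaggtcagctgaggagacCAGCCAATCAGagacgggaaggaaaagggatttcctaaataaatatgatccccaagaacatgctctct
Cxcl10: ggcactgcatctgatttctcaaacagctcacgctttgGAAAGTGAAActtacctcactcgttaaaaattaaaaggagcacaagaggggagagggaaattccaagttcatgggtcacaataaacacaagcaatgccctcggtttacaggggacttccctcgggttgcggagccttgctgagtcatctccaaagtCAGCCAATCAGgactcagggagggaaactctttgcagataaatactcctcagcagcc

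For Ccl6 (chr11:83593088-83593337, minus strand) and Ccl9 (chr11:83578637-83578886, minus strand) the shared run is GCCCTCCACTTCC, found in 5 of 32851 promoters (0.015%). The looser NF-kB pattern of GGG and CC with 5 bases between them, which also matches the run of Cxcl1, Cxcl2 and Cxcl3, is in 45.801% of all promoters and in 25 of the 45 members with a sequence. These matches are a description of letters, and binding was not measured.
Ccl6: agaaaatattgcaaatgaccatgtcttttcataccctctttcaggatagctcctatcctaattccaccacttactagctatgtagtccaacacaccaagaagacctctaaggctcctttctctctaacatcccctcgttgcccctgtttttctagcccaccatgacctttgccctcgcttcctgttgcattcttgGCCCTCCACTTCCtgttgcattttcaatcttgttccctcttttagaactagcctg
Ccl9: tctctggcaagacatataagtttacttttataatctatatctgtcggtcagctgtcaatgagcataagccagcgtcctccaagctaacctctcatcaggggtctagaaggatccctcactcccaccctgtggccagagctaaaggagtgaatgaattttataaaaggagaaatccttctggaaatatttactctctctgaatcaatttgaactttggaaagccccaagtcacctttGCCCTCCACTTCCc

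The comparison of HFD with CD at each time asks which chemokine genes differ with diet in the adipocyte fraction. Differences are log2 fold changes of CPM + 1 with their standard error, from limma fitted to the 10343 genes tested, and a gene is said to have risen or fallen where its Benjamini-Hochberg adjusted p is under 0.05. Of the 21 members, 13 were called at 8 weeks (10 higher and 3 lower in HFD), 11 at 20 weeks (7 higher and 4 lower) and 6 at 34 weeks (all 6 higher). Over all genes tested, 44.9% were called at 8 weeks (29.8% higher and 15.1% lower), 57% at 20 weeks (38.3% higher and 18.7% lower) and 43.2% at 34 weeks (27.5% higher and 15.7% lower). The share of members called was 61.9%, 52.4% and 28.6% at the 3 times, above that of all genes at 8 weeks, near it at 20 weeks and below it at 34 weeks. The median log2 difference of the members was 1.11, 0.49 and 0.36 at the 3 times, and that of all genes 0.11, 0.14 and 0.07. The diets did not overlap for 3 members at 8 weeks, 7 at 20 weeks and 0 at 34 weeks, while 22.8%, 37.2% and 2.46% of all genes were without overlap.

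Ccl9, Ccl11, Cxcl2 and Cxcr4 were higher in HFD at every time (4 of 21 members, against 12.2% of all genes), and no member was lower at every time (3.38% of all genes). In bulk RNA a difference can come from more or fewer cells that express a gene or from more or less RNA per cell, and the 2 cannot be told apart for any member. Where CPM are scaled with TMM factors, which moves the median difference of all genes from 0.11, 0.14 and 0.07 to 0.01, -0.07 and -0.01, the members called were 9 higher and 3 lower at 8 weeks, 5 higher and 4 lower at 20 weeks and 6 higher and 1 lower at 34 weeks. No called member changed direction under that scaling, while Ccr1, called in neither fit, went from 0.01 and 0.03 at 20 and 34 weeks to -0.20 and -0.05. The share of all called genes that were higher moved from 66.3%, 67.1% and 63.6% to 51.3%, 44.7% and 51.9%.

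**Figure D2:**
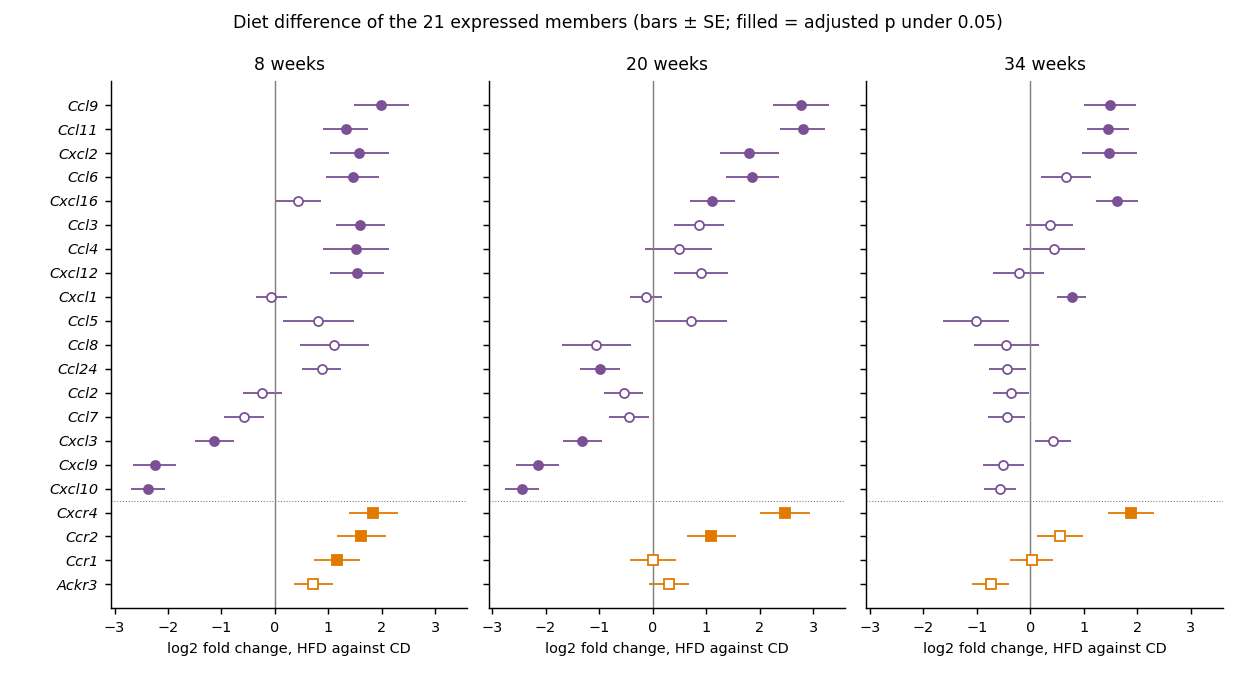
Log2 difference in CPM + 1 between HFD and CD mice for the 21 expressed members at 8, 20 and 34 weeks, with bars of 1 standard error, ligands as circles, receptors as squares and filled points for adjusted p under 0.05. Ccl9, Ccl11, Cxcl2 and Cxcr4 lie to the right with filled points at every time, and Cxcl9 and Cxcl10 lie near -2.2 to -2.4 at 8 and 20 weeks and near -0.5 at 34 weeks.

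Cxcl1, Cxcl2 and Cxcl3 are neighbouring genes whose products attract neutrophils through Cxcr2, and their calls differed. Cxcl2 rose at each time, Cxcl3 fell at 8 and 20 weeks and Cxcl1 rose at 34 weeks. Cxcl1 had a lowest, median and highest value of 350.2, 406 and 580.1 CPM in CD and 349, 412 and 489.5 CPM in HFD mice at 8 weeks. At 20 weeks the values were 1086, 1221 and 2207 CPM in CD and 921, 1356 and 1766 CPM in HFD, and at 34 weeks 109.9, 436 and 697 CPM and 386, 636 and 1227 CPM. The diets overlapped at each time, and both were high at 20 weeks. The log2 difference was -0.07 ± 0.29 at 8 weeks (SE, 95% interval -0.66 to 0.52), -0.12 at 20 weeks (-0.71 to 0.47) and 0.78 ± 0.27 at 34 weeks (adjusted p = 0.0204), the last of which was lost (adjusted p up to 0.0893) without CD mouse 6 or without HFD mouse 2 or 3. Fitted on the 34 week groups alone, it had an adjusted p of 0.128, and 4 of the 6 members called at that time stayed called.

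Cxcl2 was higher in HFD throughout. Its lowest, median and highest values were 31.1, 56.9 and 322 CPM in CD against 95.5, 246 and 389 CPM in HFD at 8 weeks, and 192, 342 and 682 against 864, 1259 and 2057 CPM at 20 weeks. At 34 weeks it had 61.5, 282 and 1559 CPM against 449, 886 and 2268 CPM. Only at 20 weeks was every HFD mouse above every CD mouse. The log2 differences were 1.58 ± 0.55, 1.81 ± 0.55 and 1.48 ± 0.52 (adjusted p = 0.0203, 0.00586 and 0.0207). The calls at 8 and 34 weeks were lost in some settings. edgeR's quasi-likelihood test on whole reads gave adjusted p of 0.116 and 0.0683, and omission of CD mouse 1, 2 or 3 or HFD mouse 4 at 8 weeks, or of CD mouse 6 or HFD mouse 2 or 3 at 34 weeks, gave adjusted p of up to 0.0591 and 0.0765.

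Cxcl3 went the other way at the earlier times. It had 5.59, 8.91 and 14.7 CPM in CD and 2.12, 3.73 and 6.20 CPM in HFD mice at 8 weeks, and 34.4, 50.2 and 128 CPM in CD and 13.4, 21.1 and 37.6 CPM in HFD mice at 20 weeks. At 34 weeks it was low in both diets, with 0.0846 to 3.59 CPM in CD and 0.373 to 8.03 CPM in HFD. It fell by 1.14 ± 0.36 on the log2 scale at 8 weeks (adjusted p = 0.0114) and by 1.31 ± 0.36 at 20 weeks (adjusted p = 0.00255), and had a log2 difference of 0.43 at 34 weeks (adjusted p = 0.31). The low Cxcl5, a further ligand of Cxcr2, had medians of 2.06 CPM in CD and 0.494 CPM in HFD mice at 8 weeks, 6.92 and 6.07 CPM at 20 weeks and 0.0821 and 0.0860 CPM at 34 weeks.

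Cxcl9 and Cxcl10, interferon-inducible ligands of Cxcr3 that attract activated T cells and NK cells, had the lowest differences of the 21 expressed members at 8 and 20 weeks. Cxcl10 had 272, 338 and 409 CPM in CD and 33.4, 71.9 and 113 CPM in HFD mice at 8 weeks, and 807, 1211 and 2100.0 CPM in CD and 146, 229.5 and 308 CPM in HFD mice at 20 weeks. The diets did not overlap at either time. At 34 weeks it had 24.3, 85.6 and 174 CPM in CD and 40.02, 57.8 and 95.1 CPM in HFD mice, and the diets overlapped. Cxcl10 fell by 2.37 ± 0.32 at 8 weeks (adjusted p = 1.71e-06) and by 2.44 ± 0.32 at 20 weeks (adjusted p = 2.37e-07) on the log2 scale, and its difference at 34 weeks was -0.57 ± 0.30 (adjusted p = 0.118, 95% interval -1.17 to 0.04). That last difference was called without CD mouse 6 (-0.82, adjusted p = 0.0111) and in edgeR (-0.84, adjusted p = 0.025).

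Cxcl9 had 195, 237 and 526 CPM in CD and 34.1, 55.6 and 81.6 CPM in HFD mice at 8 weeks, and 272, 479 and 1123 against 66.0, 115 and 167 CPM at 20 weeks. At 34 weeks Cxcl9 had 27.0, 89.7 and 171 CPM against 34.6, 43.3 and 177 CPM. Again every HFD mouse was below every CD mouse at 8 and 20 weeks, with log2 differences of -2.25 ± 0.41 (adjusted p = 7.06e-05) and -2.15 ± 0.41 (adjusted p = 4.13e-05), and not at 34 weeks, with -0.51 ± 0.38 (adjusted p = 0.286). The low Cxcl11, the third ligand of Cxcr3, was at 0.770, 2.70 and 6.72 CPM in CD and 0.0668, 0.180 and 0.83 CPM in HFD mice at 20 weeks and at most 0.408 CPM in every other group. It was counted as low through the CD group of 20 weeks alone, so no separate test of it is given. These calls of Cxcl9 and Cxcl10 at 8 and 20 weeks were kept in each alternative run. The cells from which the falls came were not tested.

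Ccl2 and Ccl7, which attract monocytes through Ccr2, were not called for diet at any time. Ccl2 had 147, 289 and 394 CPM in CD and 159, 191 and 361 CPM in HFD mice at 8 weeks, and 440.1, 695 and 1224 against 372, 461 and 617 CPM at 20 weeks. At 34 weeks Ccl2 had 27.4, 205 and 329.6 CPM against 97.8, 122 and 194 CPM. The medians were lower in HFD each time and the mice overlapped. The log2 differences were -0.24 (95% interval -0.96 to 0.49), -0.54 (-1.27 to 0.18) and -0.37 (-1.05 to 0.31), which leave room for a moderate fall as well as for a small rise. In edgeR Ccl2 was lower at 20 weeks (-0.81, adjusted p = 0.026). Ccl7 had log2 differences of -0.58, -0.45 and -0.44 with 95% intervals that all included 0. Without CD mouse 6, which had the lowest Ccl2 (27.4 CPM) and Ccl7 (19.9 CPM) of its group, both were called lower in HFD at 34 weeks (-0.73 and -0.80, adjusted p = 0.0157 for each).

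Ccl8, a further monocyte attractant, spread widely within groups, from 1.41 to 19.4 CPM in CD mice at 8 weeks and from 18.3 to 519 CPM in CD mice at 34 weeks, and its log2 differences of 1.11, -1.05 and -0.45 were not called (adjusted p = 0.159, 0.167 and 0.564). The low Ccl12, its neighbour, ranged from 0.189 to 12.5 CPM over all groups. At 20 weeks it had a median of 4.19 CPM in CD and 2.29 CPM in HFD mice.

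Ccl11 and Ccl24 are eotaxins, which attract eosinophils through Ccr3. At 20 weeks Ccl11 rose and Ccl24 fell. Ccl11 had 4.49, 6.18 and 7.97 CPM in CD and 4.01, 23.1 and 36.0 CPM in HFD mice at 8 weeks, and 2.19, 4.10 and 8.82 against 13.0, 40.8 and 47.7 CPM at 20 weeks. At 34 weeks Ccl11 had 2.20, 10.4 and 19.4 CPM against 12.6, 27.1 and 38 CPM. At 20 weeks every HFD mouse was above every CD mouse. It rose by 1.32 ± 0.42, 2.80 ± 0.42 and 1.45 ± 0.39 on the log2 scale (adjusted p = 0.0108, 1.45e-06 and 0.00359), the largest rise of the 21 tested members at 20 weeks, and stayed called whichever mouse was left out. Ccl24 had 2.11, 3.27 and 5.33 CPM in CD and 5.04, 5.79 and 13.1 CPM in HFD mice at 8 weeks, and 2.72, 7.30 and 10.1 against 0.851, 2.65 and 8.14 CPM at 20 weeks. Its log2 difference was 0.87 ± 0.37 at 8 weeks (adjusted p = 0.0504), -0.98 ± 0.37 at 20 weeks (adjusted p = 0.0216) and -0.43 at 34 weeks (adjusted p = 0.315). The call at 20 weeks was lost (adjusted p up to 0.0715) without CD mouse 1 or HFD mouse 1 or 4, and the difference at 8 weeks was called (lowest adjusted p = 0.0387) in 13 of the omissions of 1 mouse, with a replicate block and in the fit of its own groups. At 34 weeks the values were 1.60, 3.27 and 9.97 CPM and 1.21, 3.08 and 5.30 CPM, and the diets overlapped.

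The macrophage inflammatory protein ligands and their relatives fill 1 cluster on chromosome 11. Ccl9 and Ccl6, made by macrophages and other myeloid cells, were the more abundant. Ccl9 had 16.4, 45.0 and 134 CPM in CD and 79.8, 208 and 346 CPM in HFD mice at 8 weeks, and 43.2, 94.4 and 407 against 578, 669 and 988 CPM at 20 weeks. At 34 weeks Ccl9 had 61.2, 278 and 873 CPM against 426, 815 and 1134 CPM. It rose by 1.99 ± 0.52, 2.78 ± 0.52 and 1.49 ± 0.48 on the log2 scale (adjusted p = 0.00262, 3.29e-05 and 0.0134), without overlap at 20 weeks. Ccl6 had 31.2, 66.1 and 255 CPM in CD and 114, 218 and 351 CPM in HFD mice at 8 weeks, and 47.2, 108 and 419 against 355, 439.7 and 596 CPM at 20 weeks. At 34 weeks Ccl6 had 116, 398 and 1273 CPM against 430.3, 686 and 1009 CPM. It rose at 8 weeks (1.45 ± 0.50, adjusted p = 0.0177) and 20 weeks (1.86 ± 0.50, adjusted p = 0.00181) and had a difference of 0.67 ± 0.46 at 34 weeks (adjusted p = 0.246). The call at 8 weeks was lost without CD mouse 1 or 2 (adjusted p up to 0.0563) and in edgeR (adjusted p = 0.104).

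Ccl3 and Ccl4 were called for diet at 8 weeks and at no later time, and Ccl5 at no time. The change of the diet difference between times was not called for any of the 3. Ccl3 had 1.33, 7.39 and 20.9 CPM in CD and 11.4, 27.0 and 45.4 CPM in HFD mice at that time and rose by 1.60 ± 0.47 (adjusted p = 0.00627). Ccl4 had 0.757, 4.88 and 15.3 CPM in CD and 3.94, 18.8 and 43.3 CPM in HFD mice. Its rise of 1.51 ± 0.62 at 8 weeks (adjusted p = 0.0464) was lost in 11 of 38 omissions of 1 mouse (adjusted p up to 0.136), under TMM scaling (0.0539) and in edgeR (0.0663). At 20 weeks the medians were 75.8 CPM in CD and 113 CPM in HFD for Ccl3 (44.1 to 95.9 and 78.0 to 233 CPM) and 103 and 149 CPM for Ccl4 (60.0 to 155 and 38.5 to 330.3 CPM), and at 34 weeks 29.8 and 53.3 CPM (12.4 to 146 and 32.1 to 75.7 CPM) and 16.7 and 21.1 CPM (3.81 to 109 and 13.5 to 45.0 CPM). The diets overlapped in these groups and neither gene was called, with log2 differences of 0.87 and 0.36 for Ccl3 and 0.49 and 0.44 for Ccl4. Ccl5, which T cells and macrophages make, ranged from 0 to 41.4 CPM over all mice and was not called at any time (0.81, 0.72 and -1.01, adjusted p = 0.327, 0.368 and 0.187). In edgeR it was lower at 34 weeks (-2.39, adjusted p = 0.0291).

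Cxcl12 and Cxcl16 are ligands that many tissues make at rest. Cxcl12 is made by stromal cells and binds Cxcr4 and Ackr3, and Cxcl16 is a membrane-bound ligand of Cxcr6 that also takes up oxidised lipoprotein. Cxcl12 had 11.8, 18.1 and 89.0 CPM in CD and 23.2, 88.7 and 184 CPM in HFD mice at 8 weeks and rose by 1.54 ± 0.51 (adjusted p = 0.0145), a call that was lost without HFD mouse 6 (adjusted p = 0.0508). At 20 weeks it had 12.4 to 61.7 CPM in CD and 43.5 to 55.8 CPM in HFD mice, at 34 weeks 17.1 to 175 and 18.9 to 72.3 CPM, and the log2 differences of 0.90 and -0.22 were not called. Cxcl16 had 6.28, 8.12 and 16.5 CPM in CD and 5.83, 13.5 and 21.8 CPM in HFD mice at 8 weeks, and 22.9, 41.7 and 54.2 against 61.0, 79.2 and 122 CPM at 20 weeks. At 34 weeks Cxcl16 had 4.15, 20.2 and 73.4 CPM against 37.6, 63.2 and 118 CPM. It was not called at 8 weeks (0.43, adjusted p = 0.416) and rose at 20 weeks (1.12 ± 0.42, adjusted p = 0.0241) and 34 weeks (1.63 ± 0.40, adjusted p = 0.00162). At 20 weeks the diets did not overlap, yet the call was lost without CD mouse 2 or 5 or HFD mouse 5 (adjusted p up to 0.0598), under TMM scaling (adjusted p = 0.0513) and in edgeR (adjusted p = 0.0572).

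**Figure D3:**
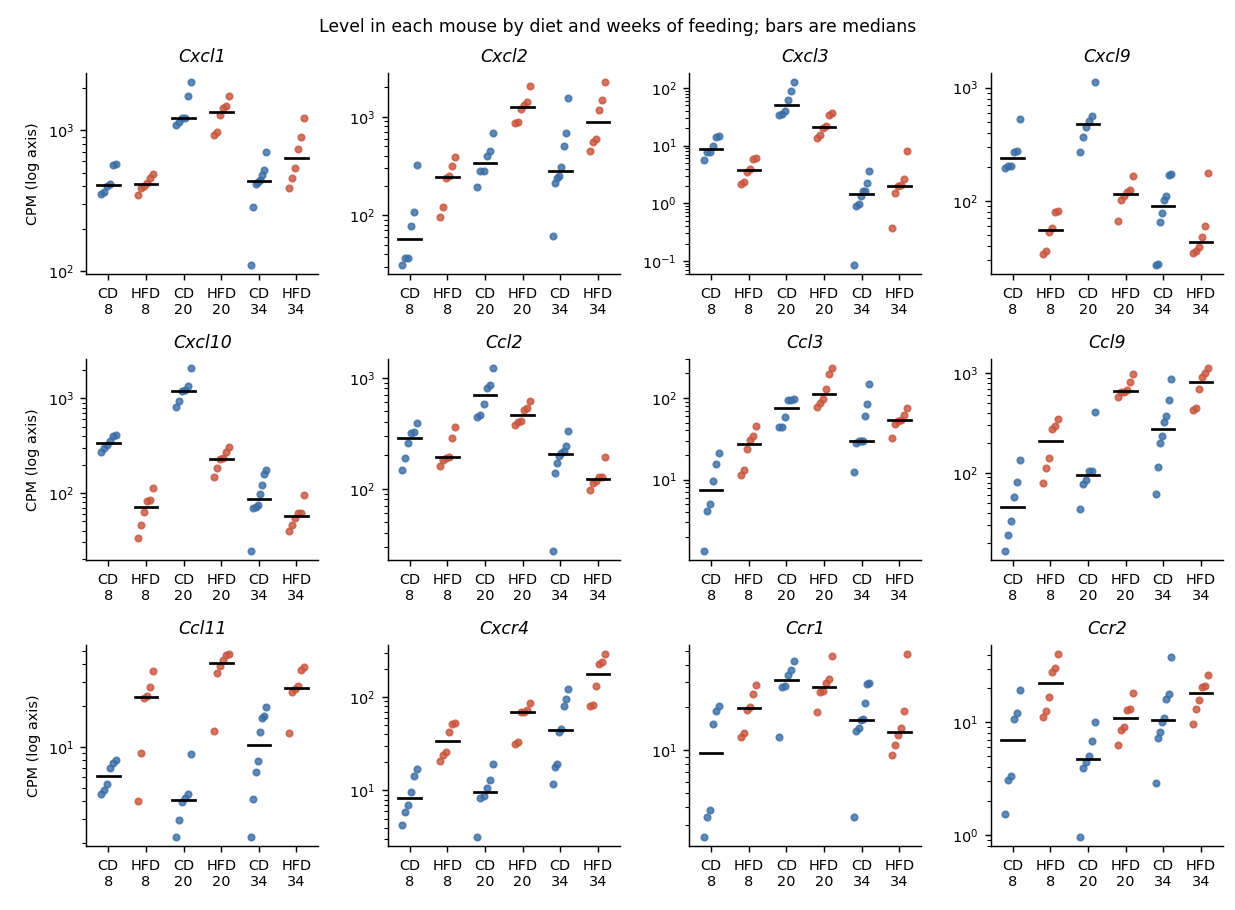
CPM of 12 members in each mouse on a log axis, CD in blue and HFD in red at 8, 20 and 34 weeks, with a bar at each median. Cxcl10 and Cxcl9 separate the diets downward at 8 and 20 weeks, and Ccl9, Ccl11 and Cxcr4 separate them upward at 20 weeks.

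Among the 4 expressed receptors, Cxcr4 had the highest difference at each time. It had 4.24, 8.32 and 17.0 CPM in CD and 20.9, 33.9 and 52.2 CPM in HFD mice at 8 weeks, and 3.16, 9.64 and 19.2 against 31.8, 69.6 and 86.2 CPM at 20 weeks. At 34 weeks it had 11.8, 43.9 and 124 CPM against 81.2, 178 and 289.6 CPM. The diets did not overlap at 8 and 20 weeks. The log2 differences were 1.84 ± 0.46, 2.47 ± 0.46 and 1.89 ± 0.43 (adjusted p = 0.00195, 3.29e-05 and 0.000956) and were called whichever mouse was left out.

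Ccr2, the receptor of Ccl2 and Ccl7 on inflammatory monocytes, had 1.55, 6.98 and 19.2 CPM in CD and 11.2, 22.4 and 40.4 CPM in HFD mice at 8 weeks, and 0.957, 4.77 and 10.01 against 6.24, 11 and 18.1 CPM at 20 weeks. At 34 weeks Ccr2 had 2.88, 10.5 and 38.3 CPM against 9.71, 18.2 and 26.5 CPM. It rose at 8 weeks (1.61 ± 0.46, adjusted p = 0.00546) and 20 weeks (1.10 ± 0.46, adjusted p = 0.0417) and had a difference of 0.55 ± 0.43 at 34 weeks (adjusted p = 0.303). The call at 20 weeks was lost without any 1 of CD mice 2, 3, 4 and 6 and HFD mice 3, 5 and 6 (adjusted p up to 0.145), under TMM scaling (0.0742) and in edgeR (0.0997).

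Ccr1, which binds Ccl3, Ccl6 and Ccl9 among others, had 2.46, 9.54 and 20.4 CPM in CD and 12.3, 19.8 and 28.6 CPM in HFD mice at 8 weeks and rose by 1.16 ± 0.44 (adjusted p = 0.0299). The call was lost without CD mouse 1, 2 or 3 or HFD mouse 4 or 6 (adjusted p up to 0.104), in edgeR (0.173) and in the fit of the 8 week groups alone (0.0518). At 20 weeks it had 12.5, 31.1 and 42.1 CPM in CD and 18.7, 27.8 and 45.7 CPM in HFD mice, and at 34 weeks 3.39, 16.4 and 29.9 and 9.24, 13.5 and 47.4 CPM, with log2 differences of 0.01 (95% interval -0.88 to 0.89) and 0.03 (-0.80 to 0.86). Its ligands Ccl6 and Ccl9 were higher in HFD at 20 weeks. Ackr3, an atypical receptor that takes up Cxcl12, had 16.8, 28.8 and 89.7 CPM in CD and 24, 53.9 and 88.1 CPM in HFD mice at 8 weeks, and 13.2, 15.8 and 41.2 against 12.3, 24.3 and 34.3 CPM at 20 weeks. At 34 weeks Ackr3 had 7.45, 25.3 and 52.5 CPM against 9.29, 14.6 and 18.9 CPM. Its differences of 0.72, 0.31 and -0.74 were not called (adjusted p = 0.111, 0.494 and 0.0805). At 34 weeks it was called lower without CD mouse 6 (-0.96, adjusted p = 0.0201), under TMM scaling (-0.82, adjusted p = 0.0468) and in edgeR (-1.06, adjusted p = 0.0192). At 8 weeks it was called higher (lowest adjusted p = 0.0202) without CD mouse 6 or HFD mouse 2.

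The 15 low members had too few reads for the filter and were tested with edgeR's quasi-likelihood test on whole reads, over 12924 genes. At 8 weeks 3 were higher in HFD and 1 lower, at 20 weeks 6 higher and 4 lower, and at 34 weeks 7 higher and 1 lower, where 21.5% and 20.3%, 28.4% and 29.1%, and 20% and 22.8% of all genes were higher and lower. These counts include Ccr7 among the higher at each time and Cxcl11 among the lower at 20 weeks. Both were counted as low through a single diet. A low member could pass through the group where it was high, so the counts are descriptions and nothing is drawn from them. Ccl22, which dendritic cells and macrophages make to attract Ccr4-bearing T cells, had 0.0815, 0.234 and 0.602 CPM in CD and 0.0758, 1.90 and 3.01 CPM in HFD mice at 8 weeks, and 0.658, 1.32 and 2.75 against 5.67, 19.4 and 46.0 CPM at 20 weeks. At 34 weeks Ccl22 had 0.0846, 0.394 and 1.87 CPM against 1.71, 3.28 and 4.13 CPM. It rose by 2.60, 3.76 and 1.91 on the log2 scale (adjusted p = 0.00458, 3.25e-06 and 0.00686), with no overlap at 20 weeks. Cx3cl1, the membrane-bound fractalkine, rose by 1.26, 1.83 and 1.53 (adjusted p = 0.0292, 0.00066 and 0.00341), from medians of 0.441, 0.634 and 0.797 CPM in CD to 1.45, 3.05 and 2.17 CPM in HFD. Ccr7, which guides dendritic cells to lymph nodes, had means of 0.199, 0.425 and 0.216 CPM in CD and 0.852, 1.67 and 0.772 CPM in HFD mice. It was counted as low through the HFD groups alone, so no separate test of it is given.

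Cxcl14 and Ccr3 rose at the later times. Cxcl14, an orphan ligand that stromal cells make, had 0.0731, 0.266 and 2.52 CPM in CD and 2.91, 5.14 and 9.67 CPM in HFD mice at 20 weeks. At 34 weeks Cxcl14 had 0.164, 0.575 and 6.42 CPM against 4.20, 8.33 and 14.3 CPM. It rose by 3.05 and 2.73 at these times (edgeR, adjusted p = 0.00041 and 0.000798). Ccr3, the eotaxin receptor of eosinophils, had 0.147, 0.937 and 1.96 CPM in CD and 6.61, 7.48 and 10.6 CPM in HFD mice at 20 weeks. At 34 weeks Ccr3 had 0, 0.191 and 5.22 CPM against 2.52, 5.04 and 9.02 CPM, and the rises were 2.80 and 2.70 (edgeR, adjusted p = 0.00062 and 0.00121). At 20 weeks every HFD mouse was above every CD mouse for both. The summed mast cell and eosinophil markers had medians of 6.33 CPM in CD and 14.8 CPM in HFD mice at 20 weeks and of 4.37 and 30.8 CPM at 34 weeks. This sum pools both cell types and does not measure eosinophils alone. Only 1 gene of the list passed the filter, and it was not called (-0.13 at 20 weeks and 0.37 at 34 weeks). The part of these cells in the rise of Ccr3 was not tested. Cxcr3 rose at 20 weeks by 1.39 (edgeR, adjusted p = 0.0382) and Cx3cr1, the fractalkine receptor, at 34 weeks by 1.19 (adjusted p = 0.0273), both under 6 CPM in each mouse, and Ccl28 rose at 34 weeks by 0.81 (adjusted p = 0.017). Lower in HFD were Cxcl5 at 8 weeks (-2.20, adjusted p = 0.0151), Cxcl13 (-3.39, adjusted p = 0.011) and Ccl25 (-0.67, adjusted p = 0.0278) at 20 weeks, and Ccl27a at 20 and 34 weeks (-0.95 and -1.04, adjusted p = 0.00198 and 0.00156).

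Ligands were compared with receptors in 3 ways. In the counts, 10 of 17 ligands and 3 of 4 receptors were called for diet at 8 weeks, 9 and 2 at 20 weeks, and 5 and 1 at 34 weeks. The shares called were 58.8% of ligands and 75% of receptors at 8 weeks, 52.9% and 50% at 20 weeks and 29.4% and 25% at 34 weeks, against 44.9%, 57% and 43.2% of all genes. The 7 falls at 8 and 20 weeks (3 and 4) were all in ligands, 17.6% and 23.5% of them, near the 15.1% and 18.7% of all genes. All 6 calls of receptors over the 3 times were rises. They were 75%, 50% and 25% of the 4 receptors, against 29.8%, 38.3% and 27.5% of all genes. With 4 receptors the absence of falls is a description. The median log2 difference was 0.87 for ligands and 1.39 for receptors at 8 weeks, 0.49 and 0.70 at 20 weeks and 0.36 and 0.29 at 34 weeks, and with 4 receptors these medians are descriptions.

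The sums over the 40 ligands and the 21 receptors are given as descriptions. Summed ligand CPM had a lowest, median and highest value of 1350.0, 1779.8 and 2954 in CD mice, against 1254, 1927 and 2452 in HFD mice at 8 weeks, 4023, 4974 and 8291 against 4125, 5391 and 7454 at 20 weeks, and 524, 2226 and 6207 against 2562, 3940.0 and 5792 at 34 weeks. The diets overlapped at each time, and at 20 weeks every mouse of either diet was above every mouse of its diet at 8 weeks. Summed receptor CPM were 30.5, 55.3 and 148 in CD mice, against 73.3, 142 and 205 in HFD mice at 8 weeks, 31.2, 65.0 and 112 against 79.9, 142 and 202 at 20 weeks, and 26.7, 107 and 205 against 123, 248 and 362 at 34 weeks. Every HFD median was above the highest CD mouse at 20 and 34 weeks. The ratio of ligand to receptor CPM, which depends on gene length and was read only between groups, had medians of 31.0 in CD and 13.2 in HFD at 8 weeks, 71.6 and 37.1 at 20 weeks and 19.7 and 16.1 at 34 weeks, with ranges of 20.0 to 59.1 and 11.5 to 18.3, 49.5 to 135 and 28.3 to 53.7, and 18.4 to 30.2 and 14.3 to 22.2. The diets did not overlap in this ratio at 8 weeks, and overlapped at 20 and 34 weeks.

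**Figure D4:**
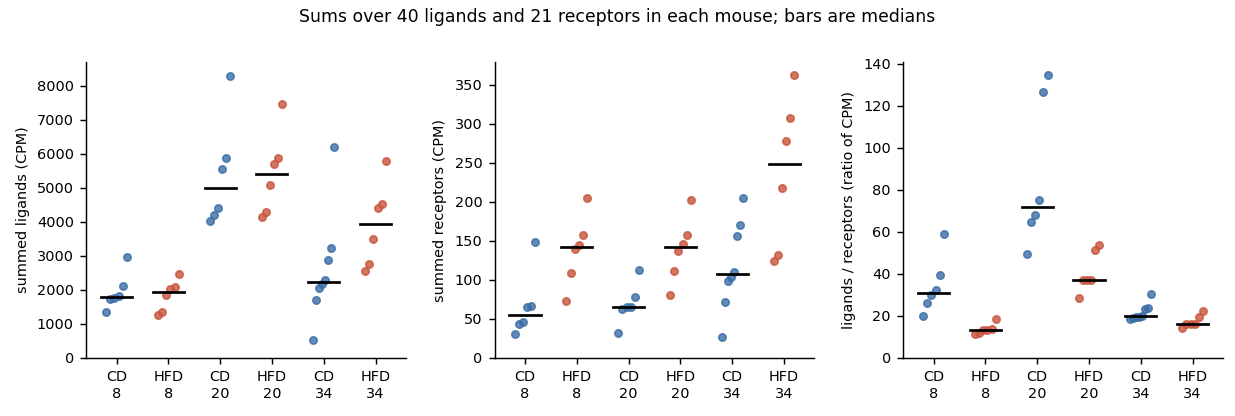
Summed CPM of the 40 ligands, summed CPM of the 21 receptors and the ratio of the 2 sums in each mouse on linear axes, CD in blue and HFD in red, with a bar at each median. Ligand sums are higher at 20 than at 8 weeks in both diets (medians of 4974 in CD and 5391 in HFD), the medians of the receptor sums are higher in HFD at each time, and those of the ratio are lower in HFD.

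The make-up of each sum also changed. Cxcr4 took a median of 14.1%, 15.0% and 42.8% of receptor CPM in CD mice at 8, 20 and 34 weeks and 26.5%, 44.6% and 71.3% in HFD mice, whereas Ackr3 took 57.8%, 27.7% and 30.4% in CD mice and 37.9%, 16.0% and 5.203% in HFD mice. Among ligands, Cxcl10 went from 18.8%, 24.4% and 4.44% in CD to 3.91%, 3.81% and 1.29% in HFD mice, and Cxcl2 from 3.18%, 6.69% and 13.3% to 11.6%, 23.4% and 23.0%. Cxcl1 stayed between 18.6% and 27.6% in every group.

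In known pairs, many abundant ligands had a receptor that was low (Cxcr3) or not expressed (Cxcr2 and Cxcr6) in the same RNA. Cxcr2, the receptor of Cxcl1 (412 CPM per kb), Cxcl2 and Cxcl3, had a mean of 0.0559 CPM per kb, Cxcr3, the receptor of Cxcl9 (62.2 CPM per kb) and Cxcl10 (147 CPM per kb), had 0.354 CPM per kb, and Cxcr6, the receptor of Cxcl16 (13.1 CPM per kb), had 0.0417 CPM per kb. None of the 10 T cell and 6 NK cell markers passed the filter on low values, and 2 of the 6 neutrophil markers did. Among the pairs with both sides expressed were Ccl2 and Ccl7 with Ccr2, Ccl3, Ccl6 and Ccl9 with Ccr1, and Cxcl12 with Cxcr4 and Ackr3. At 20 weeks Ccr2 was higher in HFD while the log2 differences of Ccl2 and Ccl7 were -0.54 and -0.45.

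The comparison of ages within a diet asks which members move with time on the diet and with age, which run together here, as does any difference between harvests. The labels name no batch, so harvest and time cannot be told apart. Which control feed each CD group had is not stated, so a change of feed between times cannot be told apart either. In CD mice at 20 against 8 weeks, 11 of 21 members were higher and 0 lower, where limma called 3.58% of all genes (1.7% higher and 1.88% lower). At an unadjusted p under 0.05 in limma, 14 members differed, and the share of all genes under that rule is not given. edgeR called 10 of the 36 expressed and low members, against 3.79% of its 12924 genes. The 10 include Cxcl11, which was counted as low through the CD group of 20 weeks alone, so this count is a description. The 11 limma calls were 10 of 17 ligands and 1 of 4 receptors. The median log2 difference of the 21 members was 1.40, against -0.02 for all genes. No macrophage marker was called in it, but their median log2 difference was 0.95 and their summed median went from 758 to 1703 CPM, and their part in the members' rises was not tested beyond the covariate. With the mean of the macrophage markers as a covariate, 12 of 21 members were called, where 8.74% of all genes were. These were 10 of the 11 (Ccl8 was lost, adjusted p = 0.0955) and the falls of Ccr2 (-1.19, adjusted p = 0.00546) and Cxcr4 (-0.79, adjusted p = 0.00794).

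Ccl4 rose by 4.17 ± 0.62 (adjusted p = 5.71e-05), from a median of 4.88 to 103 CPM, and Ccl3 by 3.09 ± 0.47 (adjusted p = 6.1e-05), from 7.39 to 75.8 CPM. Cxcl3 rose by 2.46 ± 0.36 (adjusted p = 4.45e-05), Cxcl10 by 1.83 ± 0.32 (adjusted p = 0.000471), Cxcl1 by 1.67 ± 0.29 (adjusted p = 0.000478), Cxcl16 by 1.96 ± 0.42 (adjusted p = 0.00533) and Ccl2 by 1.40 ± 0.36 (adjusted p = 0.02). The mice of the 2 ages did not overlap for any of these 7, which are all the members without overlap (7 of 21, against 3.73% of all genes). Cxcl2 (2.32 ± 0.55), Ccl5 (2.71 ± 0.67), Ccl8 (2.21 ± 0.65) and the receptor Ccr1 (1.72 ± 0.44) made up the 11, and the calls of Ccl5, Ccl8 and Ccr1 were lost in edgeR (adjusted p = 0.0737, 0.147 and 0.0509). The call of Ccl2 was also lost without CD mouse 2 of 8 weeks or 4 or 6 of 20 weeks (adjusted p up to 0.0706), that of Ccr1 without mouse 1, 2 or 3 of 8 weeks or 6 of 20 weeks (up to 0.077), and that of Ccl8 in 22 of 38 omissions of 1 mouse (up to 0.129). In HFD mice at 20 against 8 weeks, which are other mice, 11 members were higher and 2 lower (13 of 21, against 36.5% of all genes, with 21.2% higher and 15.3% lower). Ccl4 (3.14 ± 0.62), Cxcl16 (2.65 ± 0.42), Ccl5 (2.62 ± 0.67), Cxcl2 (2.55 ± 0.55), Ccl3 (2.36 ± 0.47) and Cxcl3 (2.29 ± 0.36) rose most, and Ackr3 (-1.10) and Ccl24 (-1.04) fell. Without HFD mouse 6 of 8 weeks or 4 of 20 weeks both of these falls were lost (adjusted p up to 0.056 for Ackr3 and 0.0739 for Ccl24), and that of Ccl24 also without mouse 1 or 3 of 20 weeks.

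From 20 to 34 weeks in CD mice much of this was lower again. Here 13 of 21 members were called, 5 higher and 8 lower, where 62.5% of all genes were called (41.1% higher and 21.4% lower). Cxcl3 fell by 4.61 ± 0.34 (adjusted p = 1.57e-12), Cxcl10 by 3.80 ± 0.30 (adjusted p = 5.58e-12), Cxcl9 by 2.66 ± 0.38 (adjusted p = 6.06e-07), Ccl4 by 2.46 ± 0.58 (adjusted p = 0.000514), Ccl2 by 2.06 ± 0.33 (adjusted p = 4.09e-06), Cxcl1 by 1.87 ± 0.27 (adjusted p = 7.27e-07) and Ccl7 by 1.36 ± 0.35 (adjusted p = 0.00119). Cxcl16 was the eighth (-0.89, adjusted p = 0.0489). Cxcr4 (2.02 ± 0.43), Ccl6 (1.81 ± 0.46), Ccl9 (1.29 ± 0.48), Ccr2 (1.15) and Ccl11 (0.97) rose, and 9 of the 13 macrophage markers were higher and 1 lower at 34 weeks. The call of Cxcl16 was lost in 25 of 38 omissions of 1 mouse (adjusted p up to 0.139). The rise of Ccl11 was lost without CD mouse 2 or 3 of 20 weeks or 1, 3, 5 or 7 of 34 weeks (up to 0.0804), that of Ccl9 without mouse 3 of 20 weeks or 5 of 34 weeks (up to 0.0716), and that of Ccr2 without mouse 3 of 20 weeks or 2 of 34 weeks (up to 0.0881). This comparison shares the CD mice of 20 weeks with the comparison above, so the 2 are not independent.

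Over the whole interval from 8 to 34 weeks, CD mice had 14 of 21 members called, 10 higher and 4 lower (64.7% of all genes, 40.1% higher and 24.6% lower), and HFD mice 8, 6 higher and 2 lower (52.5% of all genes, 31.7% higher and 20.8% lower). In CD mice Ccl8 (2.93 ± 0.61), Ccl6 (2.49 ± 0.46), Ccl9 (2.48 ± 0.48), Ccl3 (2.35 ± 0.44) and Cxcr4 (2.11 ± 0.43) rose most, and Cxcl3 (-2.15 ± 0.34), Cxcl10 (-1.97 ± 0.30), Cxcl9 (-1.74 ± 0.38) and Ccl7 (-0.95) fell. In HFD mice Cxcl16 (2.26), Cxcr4 (2.16 ± 0.46), Cxcl2 (2.12) and Ccl9 (1.98 ± 0.52) rose most, and Ackr3 (-1.81 ± 0.37) and Ccl24 (-1.03) fell, the latter not without HFD mouse 6 of 8 weeks or 1 of 34 weeks (adjusted p up to 0.0548). Cxcl9 and Cxcl10 in HFD mice had differences of 0.00 and -0.17 over this interval. Under TMM scaling the members called higher and lower were 9 and 5 in CD mice and 5 and 4 in HFD mice over this interval, 10 and 2 in HFD mice at 20 against 8 weeks and 4 and 9 in CD mice at 34 against 20 weeks, while the share of all called genes that were higher moved from 62%, 60.4%, 58.1% and 65.7% to 49.7%, 47.2%, 45.3% and 49.9%.

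Whether the diet difference itself changed with time was tested with interaction terms. Between 8 and 20 weeks 1 of 21 members was called, against 4.49% of all genes, between 20 and 34 weeks 2 (10.5% of all genes) and between 8 and 34 weeks 5 (28.8% of all genes). Cxcl10 had a diet difference that was less negative at 34 weeks than at 20 weeks (by 1.87 ± 0.43, adjusted p = 0.00653) and than at 8 weeks (by 1.80, adjusted p = 0.00244), and so did Cxcl3 (by 1.74 ± 0.50, adjusted p = 0.0219, and by 1.57, adjusted p = 0.0173). For Cxcl9 the term was 1.74 against 8 weeks (adjusted p = 0.0185) and 1.64 against 20 weeks (adjusted p = 0.0525). In the CD medians, Cxcl10 went from 1211 CPM at 20 weeks to 85.6 CPM at 34 weeks, and in the HFD medians from 229.5 to 57.8 CPM. The diet difference of Ccl24 was lower at 20 and 34 weeks than at 8 weeks (terms of -1.85 ± 0.52 and -1.30, adjusted p = 0.0365 and 0.0482), and that of Ackr3 was lower at 34 than at 8 weeks (a term of -1.45, adjusted p = 0.0288). Both were lost in some settings, Ccl24 in edgeR (adjusted p = 0.0587 at 20 weeks) and Ackr3 with the groups of the comparison alone (adjusted p = 0.0524). Of 38 omissions of 1 mouse, 11 lost the term of Ccl24 at 20 weeks and 22 that at 34 weeks (adjusted p up to 0.0675 and 0.0951). The term of Ackr3 was lost without CD mouse 3 or 5 or HFD mouse 6 of 8 weeks or CD mouse 3 of 34 weeks (up to 0.0593), that of Cxcl3 at 34 against 20 weeks without CD mouse 4 of 20 weeks (0.0531), and that of Cxcl9 against 20 weeks was called in 8 omissions (lowest 0.0278).

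Mice of 1 group also differed from each other, and the members moved together in these differences. Taken as deviations from the mean of the group over 38 mice, with 100000 permutations within groups and adjustment over 210 pairs, 115 pairs of members had a positive Pearson r with an adjusted p under 0.05 and 0 a negative one, with a median r of 0.441. By Spearman's rho 102 pairs were positive and 2 negative, Cxcl10 with Cxcr4 (rho = -0.443, adjusted permutation p = 0.0277) and Cxcl9 with Ccl24 (rho = -0.414, adjusted permutation p = 0.0389). The neighbours Ccl6 and Ccl9 had r = 0.959 and rho = 0.949 (adjusted permutation p = 5.68e-05 and 7.24e-05, the smallest raw p being 1e-05). Without the 2 mice farthest from the median of the more abundant gene of the pair, r was 0.948. Extreme mice of the other gene stayed in, here and in the pairs below. Ccl2 and Ccl7 had r = 0.933 and rho = 0.878 (0.854 without 2 mice), and Ccl3 and Ccl4 had 0.923 and 0.931 (0.906). Cxcl9 and Cxcl10, which fell together with diet, had a weaker relation within groups (r = 0.576 and rho = 0.53, adjusted permutation p = 0.00438 and 0.00708, and 0.557 without 2 mice). Cxcl1 was related to Cxcl3 (r = 0.706, rho = 0.697, and 0.63 without 2 mice) and to Cxcl2 (0.65, 0.53 and 0.499).

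Between ligand and receptor, Ccl6 and Ccr1 had r = 0.815 and rho = 0.779 (0.834 without 2 mice), Ccl9 and Ccr1 had 0.785 and 0.8 (0.776), and Cxcl12 and Cxcr4 had 0.646 and 0.656 (0.57). Ccl2 and Ccr2 had r = 0.374 and rho = 0.185 (adjusted permutation p = 0.0989 and 0.38), and 0.147 without the 2 mice. All values of a mouse come from the same RNA, and they share its library and its mixture of cells.

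**Figure D5:**
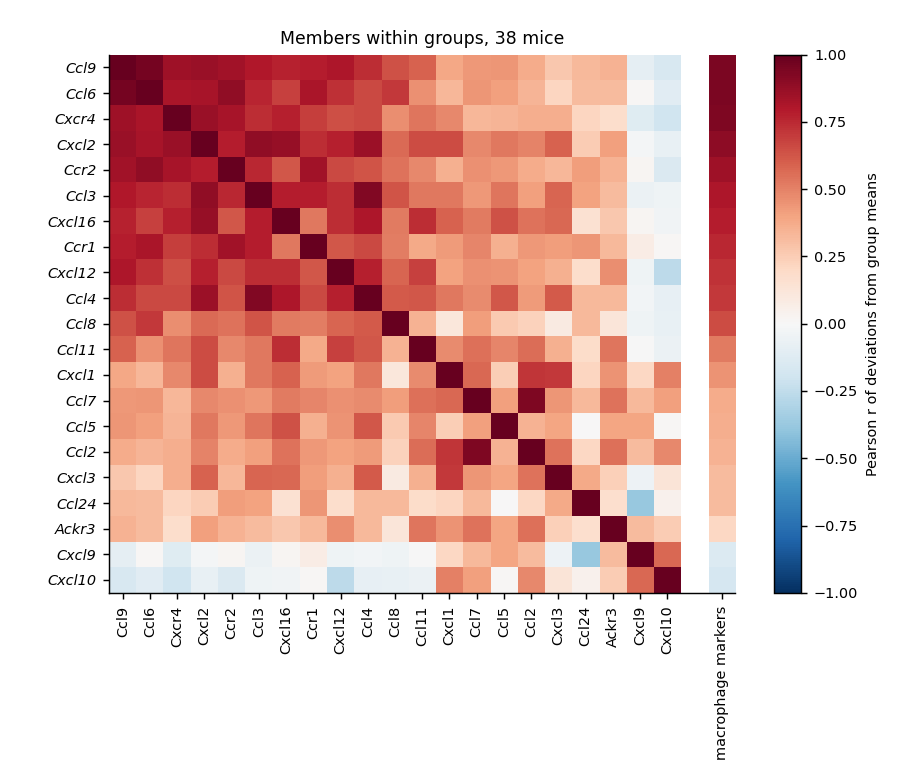
Pearson r between the deviations of 21 members from their group means over 38 mice, with a last column for the mean of the macrophage markers, on a scale from -1 to 1. Ccl6, Ccl9, Cxcr4 and Cxcl2 form a block with r up to 0.959 and follow the macrophage column. Cxcl9 and Cxcl10 have -0.135 and -0.168 in that column. Without the 2 mice farthest from the median of the marker mean they have -0.148 and -0.468.

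The macrophage markers followed many members in the same way. Their mean correlated with 13 of the 21 members within groups, each time positively, with r = 0.943 for Ccl9, 0.94 for Ccl6, 0.93 for Cxcr4 and 0.892 for Cxcl2, and by Pearson r not with Ccl2 (0.344), Cxcl9 (-0.135) or Cxcl10 (-0.168). For Cxcl10 rho was -0.388 (unadjusted permutation p = 0.0261), and r was -0.468 without the 2 mice farthest from the median of the marker mean. For Cxcl1 r was 0.446, and 0.184 without the same 2 mice. Extreme mice of the member itself stayed in. When that mean was a covariate in the fit, 5 of 21 members were called for diet at 8 weeks, 10 at 20 weeks and 4 at 34 weeks, where 34.9%, 22.2% and 7.65% of all genes were called. Cxcl10 (-2.20 and -2.17, adjusted p = 2.92e-05 and 0.000493), Cxcl9 (-2.08 and -1.87, adjusted p = 0.00084 and 0.0122) and Cxcl3 (-1.49 and -1.90, adjusted p = 0.00357 and 0.00349) remained lower at 8 and 20 weeks with the covariate.

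Of the 4 members higher in HFD at every time, Cxcr4 was called with the covariate at 8 weeks (0.52, adjusted p = 0.038) and Ccl11 at 20 weeks (1.69, adjusted p = 0.0106), and the rest had differences of 0.49 (Ccl9) and 0.06 (Cxcl2) at 8 weeks and of 0.26 and -0.72 at 20 weeks, none of them called. At 34 weeks none of the 4 was called with the covariate. Relative to the markers, Ccl8 (-3.23), Ccl4 (-1.79), Ccr1 (-1.67), Ccl24 (-1.57), Ccl3 (-1.06) and Ccr2 (-0.92) were lower in HFD at 20 weeks, and Ccl8 (-1.89), Cxcl12 (-1.46), Ccr1 (-1.08) and Ccl6 (-0.92) at 34 weeks. A covariate that itself differs with diet removes part of any diet difference that runs with it, so these values are relative to the markers. The part of macrophage RNA in the differences was not tested further. The covariate holds no endothelial, mural or fibroblast markers, and the part of those cells was not tested.

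Genes around the family gave a mixed picture. Of 38 listed genes that carry or limit chemokine receptor signals inside the cell, 36 were in the table and 35 were tested. Of these 35, 25 were higher in HFD and 2 lower at 8 weeks, 29 and 1 at 20 weeks, and 27 and 0 at 34 weeks. Over all genes, 29.8% and 15.1%, 38.3% and 18.7%, and 27.5% and 15.7% were higher and lower. The median log2 differences of the 35 were 1.00, 1.85 and 0.89, against 0.11, 0.14 and 0.07 for all genes. Among them Cdc42, a small GTPase of cell polarity, rose by 0.70, 0.84 and 0.36, Gnai2, the inhibitory G protein subunit that these receptors use, by 0.44, 0.84 and 0.67, Gnb1 by 0.36, 0.62 and 0.41 and Ptk2b by 0.46, 0.60 and 0.48. Of 31 tested regulators of chemokine transcription, 9 were higher and 11 lower at 8 weeks and 11 and 10 at 20 weeks. At 34 weeks 16 and 3 were, beside the same shares of all genes. The list holds inhibitors such as Nfkbia and Tnfaip3 as well as inducers, so these counts do not measure induction. The cytokine genes Tnf (1.71, 2.68 and 1.72) and Il1b (2.04, 4.23 and 2.27) rose at each time, as did Stat6 (0.71, 1.36 and 0.64) and Ikbkg (0.38, 0.26 and 0.22). In CD mice at 20 against 8 weeks 9 of these regulators rose and 0 fell (1.7% and 1.88% of all genes). At 34 against 20 weeks 5 rose and 18 fell (41.1% and 21.4% of all genes).

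Of 8 tested relatives that the naming rule leaves out, 4 were higher and 1 lower at 8 weeks, 6 and 1 at 20 weeks, and 4 and 0 at 34 weeks, again beside those shares. Ccrl2, an atypical relative that presents chemerin, rose by 1.96, 3.05 and 1.88 (adjusted p = 0.00483, 2.08e-05 and 0.0041). Cmtm3 rose by 1.44, 2.27 and 1.55 and Cmtm7 by 1.19, 2.43 and 1.28. The macrophage markers were higher in HFD too, and their part in these rises was not tested.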

How the data were processed

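RNA of isolated adipocytes was sequenced from 38 mice with a stranded mRNA kit. The values deposited by the authors are counts per 1000000 reads (CPM) for 29132 genes with 1 column per mouse, in which 3 technical replicates had been merged. Per the study's methods, reads were aligned to mm10 with STAR (version 2.5.2b in the submitters' processing notes), counted per gene with featureCounts on the pooled exons of GENCODE vM2, and scaled with TMM. Each column however sums to 1000000, so the values were taken as CPM without TMM factors. A total of 7966 genes had no read. Divided by the worth of 1 read, 100% of the values came out whole (to within 0.1 reads), and these whole reads served the tests that need counts. No 2 mice of a group differed by less than sampling noise (the lowest chi-square of 103 pairs was 10.6 per degree of freedom). Depth limits the precision of low genes, and limits from a count of 0 cover counting error only.

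Values were transformed to log2(CPM + 1), which understates the change of low genes, and the 10343 genes with a mean above 2.0 entered limma 3.58.1 (R 4.3.3). A single model with a mean-variance trend covered the 6 groups (32 residual degrees of freedom), and p-values are two-sided with Benjamini-Hochberg adjustment over all genes tested and a threshold of 0.05. Whole reads were tested with edgeR 4.0.16 (quasi-likelihood, 12924 genes, of which 5396, 7432 and 5542 were called for diet at 8, 20 and 34 weeks). Both tests were checked on simulated data. The comparisons in HFD mice at 20 against 8 weeks and in CD mice at 34 against 20 weeks were added after the data were seen. Levels per kilobase use the merged exon length of each gene in GENCODE vM21 (GRCm38), which is not the annotation used for counting. Positions and promoter sequences are from the RefSeq annotation of GRCm38.p6, which gave a position for all 61 members and a promoter for 45.

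Of the 62 genes that the naming rule finds, 1 is not reported here and is left out of every count, sum and median of members, while all genes stayed in the fits. Every member was accounted for by a fixed rule. Expressed members were tested and named, low members (a mean of at least 0.5 CPM in a group) were named by range, and of other lists at most 4 genes called at all 3 times were named by mean level. The members, the lists and this rule were chosen with earlier results of these data known. The values of mice with the same number in different groups did not deviate together (median correlation of -0.068, and 2 of 36 mice correlated best with their own number), so the numbers were not taken as pairs. Alternatives were a pseudocount of 0.25, no filter, a filter at 0.5, TMM and median-of-ratios factors, edgeR, the groups of a comparison alone, the macrophage marker mean as covariate, a replicate block and the omission of each mouse.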

Additional observations from a re-analysis of the deposited data

Results flagged for a closer look

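Among 126 tests of a group's lowest or highest mouse against its range (Dixon's test), 12 values of members stood apart, and chance gives about 1 in 20. Of these, 3 came from CD mouse 6 at 34 weeks, which was low for Ccl2 (27.4 CPM, with the nearest mouse at 140 CPM), Ccl7 (19.9 against 117 CPM) and Ccr1 (3.39 against 13.6 CPM), and which had the lowest summed ligands (524 CPM) and receptors (26.7 CPM) of its group. Ccl8 was high in CD mouse 5 at 34 weeks (519 against 85.4 CPM) and in HFD mouse 1 at 34 weeks (105 against 25.3 CPM), the mouse in which Cxcl9 was also high (177 against 60.1 CPM). Ccl7 was high in HFD mouse 6 at 34 weeks (200 against 94.4 CPM). At 8 weeks CD mouse 6 was high for Ccl5 (9.12 against 0.602 CPM) and Cxcl9 (526 against 275 CPM). At 20 weeks Ackr3 was high in CD mouse 1 (41.2 against 19.7 CPM), Ccr1 low in CD mouse 3 (12.5 against 27.7 CPM) and Ccl11 low in HFD mouse 4 (13.0 against 34.8 CPM). The causes were not tested.

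The diet difference itself changed between times in 8 of the interaction terms of 21 members over 3 comparisons (limma, adjusted p under 0.05). The shares of members were 4.76%, 9.52% and 23.8% at 20 against 8, 34 against 20 and 34 against 8 weeks, close to or below the 4.49%, 10.5% and 28.8% of all genes. These were Ccl24 at 20 against 8 weeks (-1.85), Cxcl10 and Cxcl3 at 34 against 20 weeks (1.87 and 1.74), and Cxcl10, Cxcl9, Cxcl3, Ccl24 and Ackr3 at 34 against 8 weeks (1.80, 1.74, 1.57, -1.30 and -1.45).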

How the results depend on the processing

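The counts of members called moved by over 1.5 times in some settings. Without a filter, with a filter at 0.5 and in edgeR, where up to 15 low members are tested as well, the counts were 24, 18 and 20 for diet at 20 weeks, 17, 14 and 16 at 34 weeks, 14, 15 and 17 for HFD at 34 against 8 weeks and 9, 8 and 9 for the diet difference at 34 against 8 weeks, and 22 without a filter for HFD at 20 against 8 weeks. For the diet difference at 20 against 8 weeks they were 2, 3 and 0, where edgeR had 6 members and limma 3 at an unadjusted p under 0.05. Over all 12924 genes, edgeR called 57.5% and 42.9% for diet at 20 and 34 weeks and 49.2% for HFD at 34 against 8 weeks. For the diet difference it called 26% at 34 against 8 weeks and 2.92% at 20 against 8 weeks. The shares of all genes for the other filters are not given. Where they were tested, Ccr7 and Cxcl11, which were low members through a single diet, are included in these counts. With the groups of a comparison alone the diet difference gave 2 at 20 against 8 weeks and 3 at 34 against 8 weeks. With the macrophage marker mean as covariate the counts were 5 for diet at 8 weeks, 8 for CD at 34 against 8 weeks, and 5, 4 and 13 for the diet difference at 20 against 8, 34 against 20 and 34 against 8 weeks. With mouse number as a replicate block the diet difference at 34 against 20 weeks had 1, and all other counts stayed within 1.5 times. Leaving out each mouse gave 9 to 15, 9 to 11 and 4 to 8 for diet at 8, 20 and 34 weeks, 8 to 11, 12 to 16 and 10 to 13 for CD at 20 against 8, 34 against 8 and 34 against 20 weeks, 7 to 11 and 11 to 14 for HFD at 34 against 8 and 20 against 8 weeks, and 0 to 1, 1 to 3 and 3 to 7 for the diet difference at 20 against 8, 34 against 20 and 34 against 8 weeks.

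Among members called in the reported or the alternative fit, directions reversed with the macrophage covariate and in no other setting run. Differences called in neither fit also turned in sign, 32 with the covariate, 124 over all omissions of 1 mouse and 27 in the other settings. The reversals were Ccl3 -1.06, Ccl4 -1.79, Ccl6 -0.53, Ccr1 -1.67, Ccr2 -0.92, Cxcl16 -0.59 and Cxcl2 -0.72 for diet at 20 weeks, and Ccl6 -0.92, Ccl9 -0.17, Ccr1 -1.08 and Cxcl2 -0.20 at 34 weeks. In CD mice they were Cxcr4 -0.79 at 20 against 8 weeks, Ccl4 -0.55, Ccl9 -0.0125, Ccr1 -0.76, Ccr2 -1.24, Cxcl12 -1.08, Cxcl16 -0.63, Cxcl2 -0.29 and Cxcr4 -0.0840 at 34 against 8 weeks, and Ccl9 -0.20 and Ccr2 -0.0476 at 34 against 20 weeks. In HFD mice they were Ccl3 -0.92, Ccl4 -1.77, Ccl6 -0.82, Ccl9 -0.67, Cxcl2 -0.55 and Cxcr4 -0.17 at 34 against 8 weeks, and Ccl6 -0.81, Ccl9 -0.0316 and Cxcr4 -1.04 at 20 against 8 weeks. The marker mean itself differs with diet and age, so the covariate takes out what runs with it, and the cause was not tested. Differences of members under about 1 CPM rest on few reads per mouse.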
